A study of Mus musculus with 11 samples.

Results

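The levels of DNA replication and mitosis genes were compared on 11 Mouse Clariom S arrays of liver sinusoidal endothelial cells, abbreviated LSEC, which line the capillaries of the liver. The 40 genes, called members here, were listed by symbol and matched to the platform's symbols. Of these, 36 were measured, each by 1 of the 22206 transcript clusters compared. Mcm7, Ccnd1, Ccnb1 and Foxm1 were not analysed here. The wild type group (6 arrays) came from Atg5lox/lox mice, which carry floxed alleles of the autophagy gene Atg5 and no Cre. The knockout group (5 arrays, titled autophagy deficient) came from Atg5lox/lox;VE-cadherin-Cre mice, in which Cre is driven by the promoter of the endothelial gene Cdh5. All mice were 8 weeks old at the start of a high fat diet given for 2 weeks. Both groups carried the floxed alleles and ate that diet, and no group with Cre alone or on another diet was compared here. The promoter is active in endothelium throughout the body, not in LSEC alone. Arrays were titled biological replicates, with no statement on how many animals each stands for. The p-values therefore reflect the spread between these samples, part of which may be technical.

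Cells prepare to divide by loading the MCM helicase onto replication origins with the help of Cdc6 and Cdt1. E2F transcription factors raise genes for nucleotide supply and DNA synthesis, among others. Mitotic kinases and cyclins follow, and the spindle checkpoint holds chromosome separation until every kinetochore is attached. The endothelium of the adult liver is largely quiescent and re-enters the cycle after injury or loss of tissue, and resident macrophages renew themselves by division. The question here was whether this programme differed between the genotypes.

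The promoters of the members were searched for sequence words known from cell cycle genes, and 3 promoters are shown because their genes had the smallest p-values among the members. Promoters were taken from RefSeq on GRCm38.p6 as 250 bases before to 50 bases after the first listed start of a gene, and 30 of the 36 measured members matched. Of 12 licensing and DNA synthesis members, 7 (58.3%) held a word that E2F factors are known to bind, against 9.69% of 27025 promoters in all. They were the licensing members Mcm3, Mcm5, Mcm6, Cdc6 and Cdt1 and the DNA synthesis members Rrm1 and Rrm2. The E2F word was TTGGCGC on either strand. Its variant TTCCCGC counted as well. Another variant counted was TTGCCGC on either strand. The last variant was TTCGCGC, searched likewise. Of 15 members of mitotic entry, the spindle checkpoint and division, 2 (13.3%) held an E2F word. The cell cycle genes homology region word TTTGAA, known from promoters that are active in late cycle, stood in 11 of these 15 (73.3%), in 2 of the 12 replication promoters (16.7%) and in 18.1% of all. The CCAAT box was found in 13 of the 15 (86.7%), in 8 of the 12 (66.7%) and in 37.9% of all. Among 75 promoters of other replication and mitosis genes, 27 (36%) held an E2F word, 38 (50.7%) the homology region word and 49 (65.3%) a CCAAT box. A match describes the letters only and does not show that a factor binds. In the sequences, capitals mark these words on either strand, and forward and reverse E2F words overlap in part.
Mki67 (chr7:135716330-135716629, minus strand): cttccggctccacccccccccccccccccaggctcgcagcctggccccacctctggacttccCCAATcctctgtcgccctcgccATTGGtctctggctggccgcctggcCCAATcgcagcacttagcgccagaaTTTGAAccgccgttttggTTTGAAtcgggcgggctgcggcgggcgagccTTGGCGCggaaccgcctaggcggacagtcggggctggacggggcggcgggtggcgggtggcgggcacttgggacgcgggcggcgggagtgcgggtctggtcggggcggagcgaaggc
Bub1b (chr2:118597961-118598260, plus strand): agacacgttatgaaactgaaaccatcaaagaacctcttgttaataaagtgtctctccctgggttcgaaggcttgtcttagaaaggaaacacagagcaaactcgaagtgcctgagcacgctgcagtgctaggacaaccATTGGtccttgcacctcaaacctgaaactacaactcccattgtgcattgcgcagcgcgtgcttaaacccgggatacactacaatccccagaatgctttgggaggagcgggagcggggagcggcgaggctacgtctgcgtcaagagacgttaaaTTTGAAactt
Mcm6 (chr1:128359656-128359955, minus strand): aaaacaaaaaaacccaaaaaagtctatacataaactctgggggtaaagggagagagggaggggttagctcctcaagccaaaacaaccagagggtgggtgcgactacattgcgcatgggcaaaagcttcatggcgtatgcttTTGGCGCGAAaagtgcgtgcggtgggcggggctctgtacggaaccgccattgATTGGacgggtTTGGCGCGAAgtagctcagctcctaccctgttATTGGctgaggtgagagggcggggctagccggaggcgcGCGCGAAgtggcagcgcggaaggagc
The Mki67 promoter held 2 homology region words and 1 E2F word, that of Bub1b 1 homology region word after the start and no E2F word, and that of Mcm6 5 E2F matches and no homology region word.

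Before the members are described, the state of the arrays is given. The 12 LSEC markers were high on every array, with list means between 11.88 and 12.25, and the scavenger receptor Stab2 read between 11.71 and 12.32. Of 13 measured macrophage markers all had differences above 0 and 12 were called higher in knockout by the study's rule (a fold of 1.5 and p of 0.05 or less), with list means from 7.85 to 10.44 against 7.19 to 8.69 in wild type. Of 12 hepatocyte markers all had differences below 0 and 7 were called lower, with means from 7.84 to 9.47 against 8.82 to 10.31. In such bulk samples fewer cells of a type and less RNA per cell cannot be told apart. Knockout array 2 stood apart as the highest array for all 13 macrophage markers. Intron control probes were brighter on wild type arrays 1 and 6 and knockout arrays 3 and 4 (5.75 to 5.96) than on the other 7 (5.05 to 5.38), and Y-linked genes were high on wild type arrays 3 and 6 and knockout array 3. Atg5 itself averaged 7.50 ± 0.09 (SD, n = 6) on wild type arrays against 7.60 ± 0.17 (SD, n = 5) on knockout arrays. As the place of its probes relative to the floxed part was not available to this comparison, these levels are no check of the genotype.

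Most of the 36 members had small estimated differences between the genotypes. Bub1b, whose product BubR1 is part of the spindle checkpoint, was 1.59-fold higher in knockout. Mki67, the gene of the proliferation antigen Ki-67, was 1.44-fold higher and Mcm6, a subunit of the replicative helicase, 1.43-fold higher. The other 33 members differed by less, between -0.12 and 0.30 on the log2 scale. By the study's rule, a gene is regulated when its fold reaches 1.5 and its unadjusted p, here from limma, is 0.05 or less. Under it Bub1b was the only member called higher (1 of 36, 2.78%) and 0 were called lower, against 0.671% of all 22206 clusters called higher and 0.356% called lower (1.03% in either direction). No member passed a Benjamini-Hochberg adjusted p of 0.05 over all clusters in limma, nor did any other cluster (0 of 22206), and the smallest adjusted p of a member was 0.76. At an unadjusted p of at most 0.05 in limma, 3 members were higher (8.33%) and 0 lower, against 2.61% and 3.78% of all clusters. The median difference of the members was 0.07, with 25 of 36 above 0, beside a median of -0.02 and 46% above 0 over all clusters. Centring the arrays on their medians, which shifts every cluster alike, put 30 of 36 members and 54.9% of all clusters above 0.

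**Figure D1:**
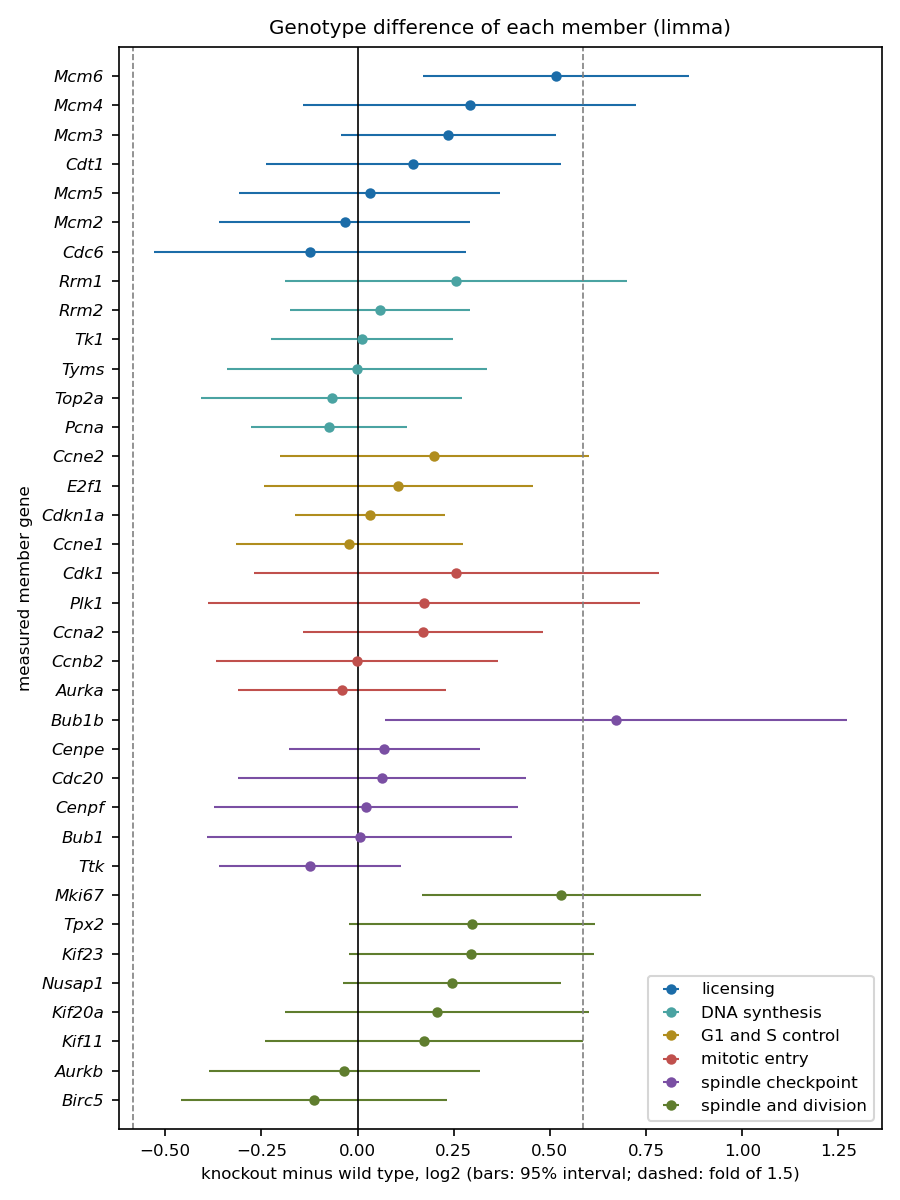
Knockout minus wild type differences on the log2 scale for the 36 measured members, grouped by role. Points are limma estimates, bars their 95% intervals, and dashed lines a fold of 1.5. Only the intervals of Mcm6, Bub1b and Mki67 lie wholly above 0, and the point of Bub1b alone lies beyond the fold of 1.5.

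Ki-67 coats chromosomes in mitosis and is made through the active cycle. Mki67 in wild type arrays read from 6.62 to 7.32 with a median of 7.08. In knockout arrays 1 to 5 it read 8.03, 7.57, 7.41, 7.31 and 7.31. Each knockout array exceeded the wild type mean, 3 exceeded every wild type array, and the groups overlapped only through the wild type array at 7.32. The means were 7.0 ± 0.29 (SD, n = 6) and 7.53 ± 0.30 (SD, n = 5), a log2 difference of 0.53 (SE 0.17, exact permutation p = 0.0087, two-sided, over 462 splits of the arrays). Leaving out wild type array 5 brought it past the fold of the rule (0.59). Without knockout array 2, the array of highest macrophage markers, the difference was 0.52, and with that array kept and the mean of the macrophage markers added to the model it was 0.42 and no longer at an unadjusted limma p of 0.05 or less. Within the arrays of low and of high intron control signal it was 0.57 and 0.50.

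Mcm6 belongs to the helicase that unwinds DNA ahead of the fork. Its wild type levels ran from 7.43 to 8.26 with a median of 7.81. The knockout arrays 1 to 5 read 8.12, 8.59, 8.61, 8.07 and 8.34. Every knockout array lay above the wild type mean, and arrays 2, 3 and 5 lay above all wild type arrays. The means of 7.83 ± 0.30 (SD, n = 6) and 8.35 ± 0.25 (SD, n = 5) differed by 0.52 (SE 0.16, exact permutation p = 0.015). The rule was met without wild type array 1 (0.60) or knockout array 4 (0.585). With the mean of the macrophage markers in the model the difference was 0.50. It was 0.61 within the arrays of low intron control signal and 0.34 within those of high signal. There, with 2 wild type and 2 knockout arrays, it missed both the fold and the p of the rule.

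Bub1b was spread more widely. In wild type it read from 5.04 to 5.49 with a median of 5.30, and in knockout arrays 1 to 5 it read 6.18, 7.16, 5.76, 5.44 and 5.16. Arrays 1, 2 and 3 lay above all wild type arrays, whereas arrays 4 and 5 lay within the wild type range. The means were 5.27 ± 0.16 (SD, n = 6) and 5.94 ± 0.78 (SD, n = 5), a difference of 0.67 (SE 0.28, exact permutation p = 0.032). Leaving out wild type array 1 (0.63), wild type array 5 (0.65) or knockout array 1 (0.61) ended the call through its p, and leaving out knockout array 2 (0.37) ended it through both p and fold. With the mean of the macrophage markers in the model the difference was 0.19 and not called, and with that of the hepatocyte markers it was 1.09 and called. Within the arrays of low intron control signal it was 0.86 and still called, and within those of high signal it was 0.405 and not called.

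**Figure D2:**
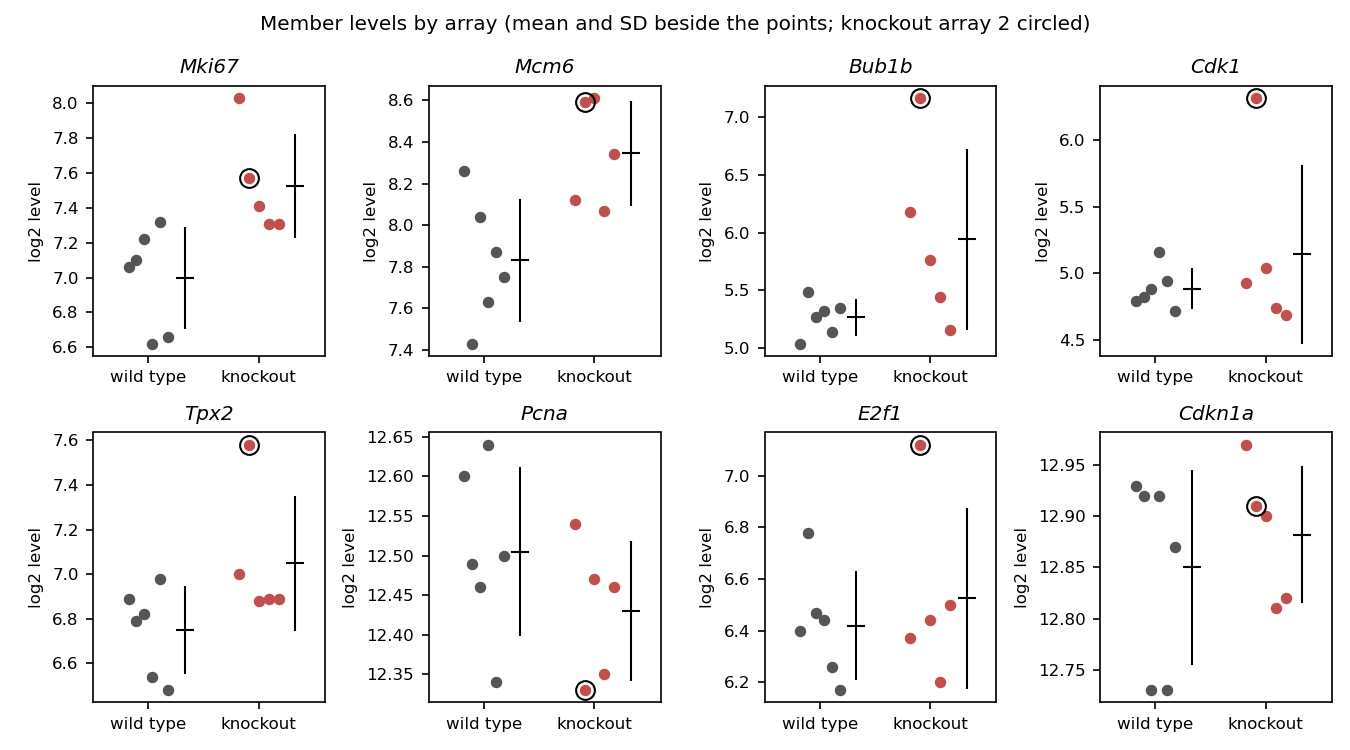
Log2 levels of 8 members on each array, wild type in grey and knockout in red, with the group mean and SD (n = 6 and 5) as a bar beside the points. Knockout array 2 is circled and is far above the other arrays for Bub1b, Cdk1, Tpx2 and E2f1, but not for Pcna, where it is lowest, or Cdkn1a. Each panel has its own axis.

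Among the licensing members, 5 of 7 lay above 0 with a median of 0.14, and none was called. Leaving out knockout array 2 gave 4 of 7 and a median of 0.03. The helicase subunit Mcm3 was at 9.26 ± 0.22 (SD, n = 6) in wild type and read 9.65, 9.67, 9.42, 9.22 and 9.51 in knockout arrays 1 to 5. Its difference of 0.24 (SE 0.13) had an exact permutation p = 0.089. Mcm4 differed by 0.29 (SE 0.20), with all 5 knockout arrays between 7.68 and 8.09, inside the wild type range of 6.82 to 8.21, and by 0.13 without wild type array 2. Wild type array 2 was the lowest of the 11 arrays for Mcm4, Mcm6 and Cdc6. Mcm2 and Mcm5, of the same ring, differed by -0.03 (SE 0.15) and 0.03 (SE 0.16). The helicase loaders Cdt1 (0.14, SE 0.18) and Cdc6 (-0.12, SE 0.19) overlapped between the groups. Without wild type array 2 Cdc6 was at -0.288, and without knockout array 2 Cdt1 was at 0.03.

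The DNA synthesis members had a median difference of 0.005, with 3 of 6 above 0. Pcna, the sliding clamp of DNA polymerases, read 12.51 ± 0.11 (SD, n = 6) and 12.43 ± 0.09 (SD, n = 5), with knockout values of 12.54, 12.33, 12.47, 12.35 and 12.46. Its difference was -0.08 with a 95% interval from -0.28 to 0.13, and the groups overlapped. Both subunits of ribonucleotide reductase, which makes deoxynucleotides, were measured. The large subunit Rrm1 differed by 0.26 (interval -0.19 to 0.70) and the small subunit Rrm2 by 0.06 (interval -0.18 to 0.29). Rrm1 was at 0.11 without wild type array 2 and at 0.13 without knockout array 2. Thymidylate synthase Tyms (-0.001, SE 0.16) and thymidine kinase Tk1 (0.01, SE 0.11) were within the spread between arrays. Top2a, the topoisomerase that untangles chromosomes, read 5.98, 6.65, 5.80, 6.13 and 6.03 in knockout and from 5.81 to 6.49 in wild type, a difference of -0.07 (interval -0.41 to 0.27).

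Of the members that govern G1 and S phase, 3 of 4 lay above 0 with a median of 0.07, against 2 of 4 and -0.009 without knockout array 2. Cdkn1a encodes p21, the cyclin-dependent kinase inhibitor that p53 induces. It read 12.97, 12.91, 12.90, 12.81 and 12.82 in knockout arrays and from 12.73 to 12.93 in wild type. The difference was 0.03, with a 95% interval from -0.16 to 0.23, so a 1.5-fold change of array signal lies outside the interval. These levels lay near the top of the value range (up to 13.79). Whether signal there follows the amount of RNA in full was not tested. The S phase activator E2f1 differed by 0.11 (SE 0.16), with knockout array 2 at 7.12 and the other 4 between 6.20 and 6.50, and was at -0.04 without that array. Cyclin E1 (Ccne1) differed by -0.02 (SE 0.14). Cyclin E2 (Ccne2) read 6.48, 5.69, 6.75, 6.67 and 6.39 in knockout, where array 2 was the lowest of all 11, and from 5.84 to 6.47 in wild type. Its difference was 0.20 (SE 0.19) over all arrays and 0.38 (SE 0.14) without knockout array 2, -0.17 with the mean of the hepatocyte markers in the model and 0.67, then called, with that of the macrophage markers.

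Mitotic entry was covered by 5 measured members, 3 of them above 0, with a median of 0.17. The median was -0.08, and 1 of 5 lay above 0, without knockout array 2. All 5 were highest on knockout array 2. The mitotic kinase Cdk1 read 4.93, 6.31, 5.04, 4.74 and 4.69 in knockout and from 4.72 to 5.16 in wild type. Its difference of 0.26 (SE 0.24, exact permutation p = 0.51) was -0.04 without knockout array 2. On 4 of 11 arrays Cdk1 read below the mean of the antigenomic background probes, so its low levels are uncertain. Plk1, a kinase of spindle assembly, read 7.35 on knockout array 2 and between 5.85 and 6.33 on the other 4, and its difference moved from 0.17 to -0.08 without that array. Cyclin A2 (Ccna2) differed by 0.17 (SE 0.14), with array 2 at 6.78 and the others between 6.18 and 6.28, and by 0.06 without that array. The kinase Aurka (-0.04, SE 0.13) and cyclin B2 (Ccnb2, -0.002, SE 0.17) were within the spread between arrays.

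Among the spindle checkpoint members other than Bub1b, none differed from wild type by more than 0.12 in either direction. Bub1, the partner kinase of BubR1, read below the antigenomic background mean, itself a rough guide, on all 11 arrays. Its difference of 0.01 (SE 0.18) is therefore too uncertain to be read as one of expression. The checkpoint kinase Ttk (-0.12, SE 0.11) read below it on 7 of 11 arrays. The kinetochore proteins Cenpe (0.07, SE 0.12) and Cenpf (0.02, SE 0.18) and the anaphase activator Cdc20 (0.06, SE 0.17) overlapped between groups.

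The spindle and division members, Mki67 among them, had the highest median of the 6 roles, 0.23, with 6 of 8 above 0. Without knockout array 2 it was 0.11, with 5 of 8 above 0. The spindle assembly factor Tpx2 read 7.0, 7.58, 6.88, 6.89 and 6.89 in knockout arrays 1 to 5 and from 6.48 to 6.98 in wild type. All 5 knockout arrays were above the wild type mean, and the difference of 0.30 (SE 0.15) had an exact permutation p = 0.067. Without knockout array 2 it was 0.165, with the mean of the macrophage markers in the model 0.02 and with that of the hepatocyte markers 0.55. Kif23, a motor of the central spindle, differed by 0.30 (SE 0.15, exact permutation p = 0.080), with knockout arrays at 6.48, 6.67, 6.38, 6.28 and 5.92. Nusap1, which binds spindle microtubules, differed by 0.25 (SE 0.13, exact permutation p = 0.080). Here knockout array 1 was the highest of the 11 arrays (7.15) and array 2 only the fifth (6.70), and without array 1 the difference was 0.16. The motor Kif20a (0.21, SE 0.18) read below the background mean on 3 of 11 arrays, and leaving out knockout array 2 or 5 moved its difference to 0.06 or 0.325. Kif11 (0.17, SE 0.19), the motor that separates spindle poles, read below it on 10 of 11 and was at -0.005 without knockout array 2. Aurora B kinase Aurkb (-0.03, SE 0.16) and its partner survivin, Birc5 (-0.11, SE 0.16), lay slightly below 0.

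Knockout array 2 was the highest of all 11 arrays for 23 of the 36 members (63.9%), against 18.2% of all clusters. It was highest for 5 of 5 mitotic entry members, 5 of 6 DNA synthesis members, 5 of 8 spindle and division members, 4 of 7 licensing members, 3 of 6 checkpoint members and 1 of 4 members of G1 and S control. Its mean over the members was 7.33, while the other 4 knockout arrays lay between 6.76 and 6.99 and wild type between 6.77 and 6.89. Of the 36 members, 32 were above their wild type mean on this array, against 11 to 27 on the other knockout arrays. Without it the median member difference turned from 0.07 to -0.03 and 16 rather than 25 members lay above 0, while the median over all clusters went from -0.02 to -0.04. Mcm6, Mki67 and Ccne2 then had an unadjusted limma p of at most 0.05, and no member was called. Of all clusters, 1.18% were called in that fit and 42.2% lay above 0. The share of all clusters at that p is not given here for this fit. The 13 macrophage markers averaged 10.44 on this array and 7.85 to 9.05 on the other knockout arrays. Stellate cell markers averaged 9.38 there, 8.18 to 9.03 on the others and 7.88 to 9.07 in wild type. Hepatocyte markers averaged 9.47 there, 7.84 to 8.62 on the other knockout arrays and 8.82 to 10.31 in wild type. LSEC markers also had their highest mean there, 12.25, against 11.91 to 12.11 on the other knockout arrays and 11.88 to 12.21 in wild type. The part of these cells in the member levels was not tested.

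**Figure D3:**
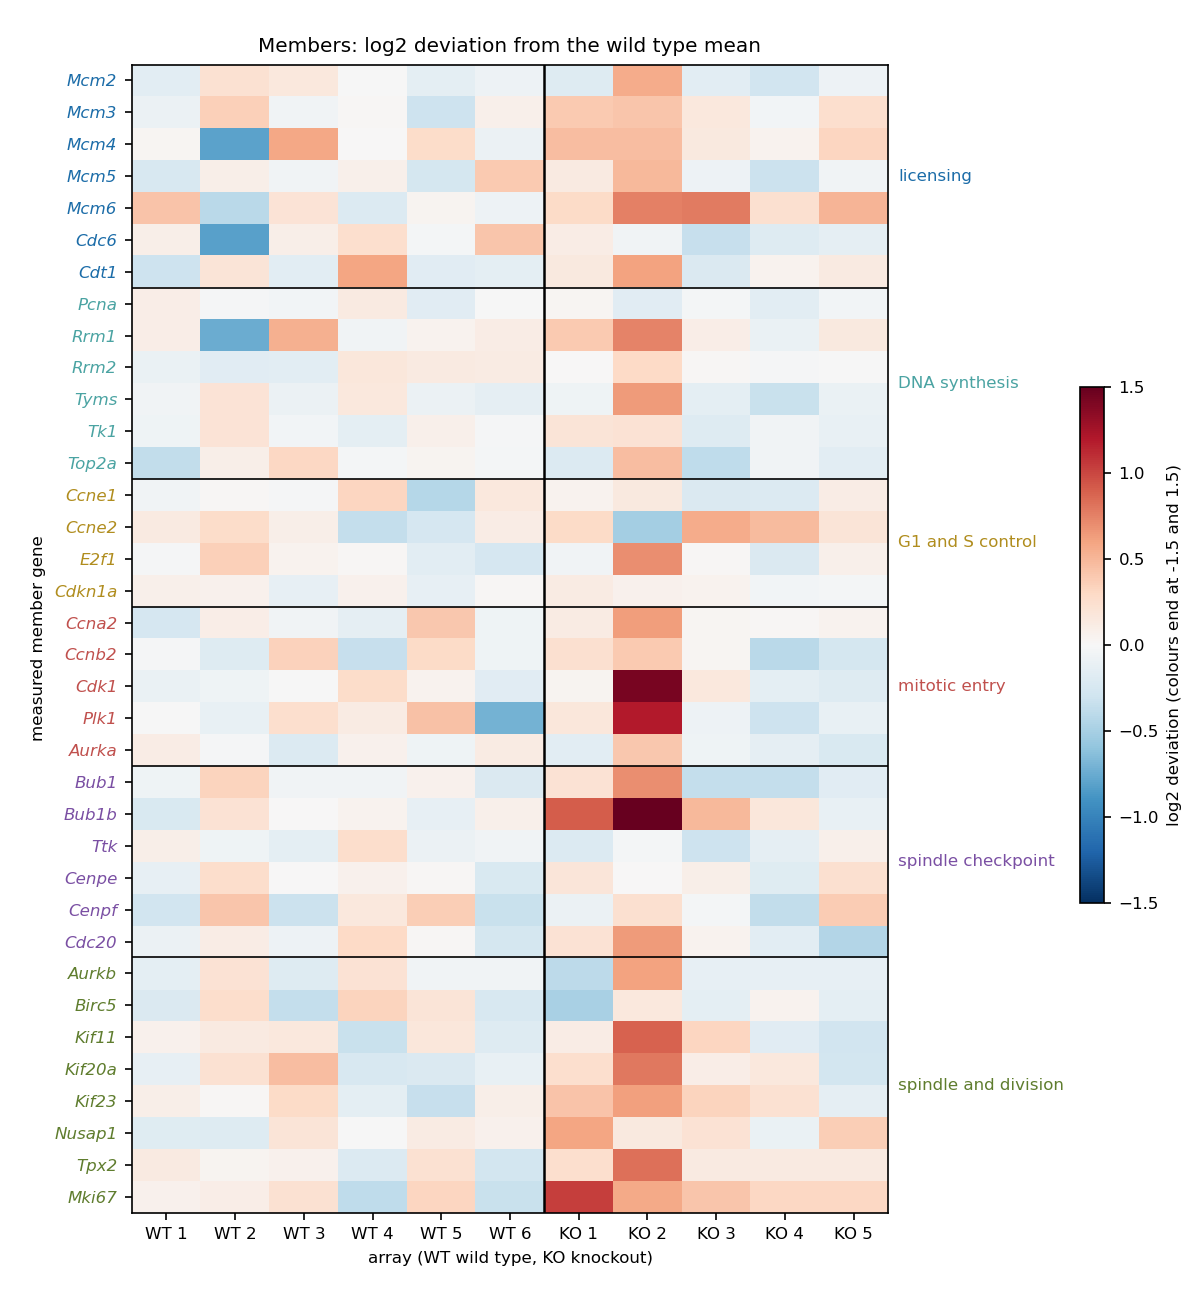
Log2 deviation of each of the 36 measured members (rows, grouped by role) from its wild type mean on each of the 11 arrays (columns). Red is above and blue below the wild type mean. Knockout array 2 is red for 32 of 36 members, most of all for Bub1b, Cdk1 and Plk1.

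**Figure D4:**
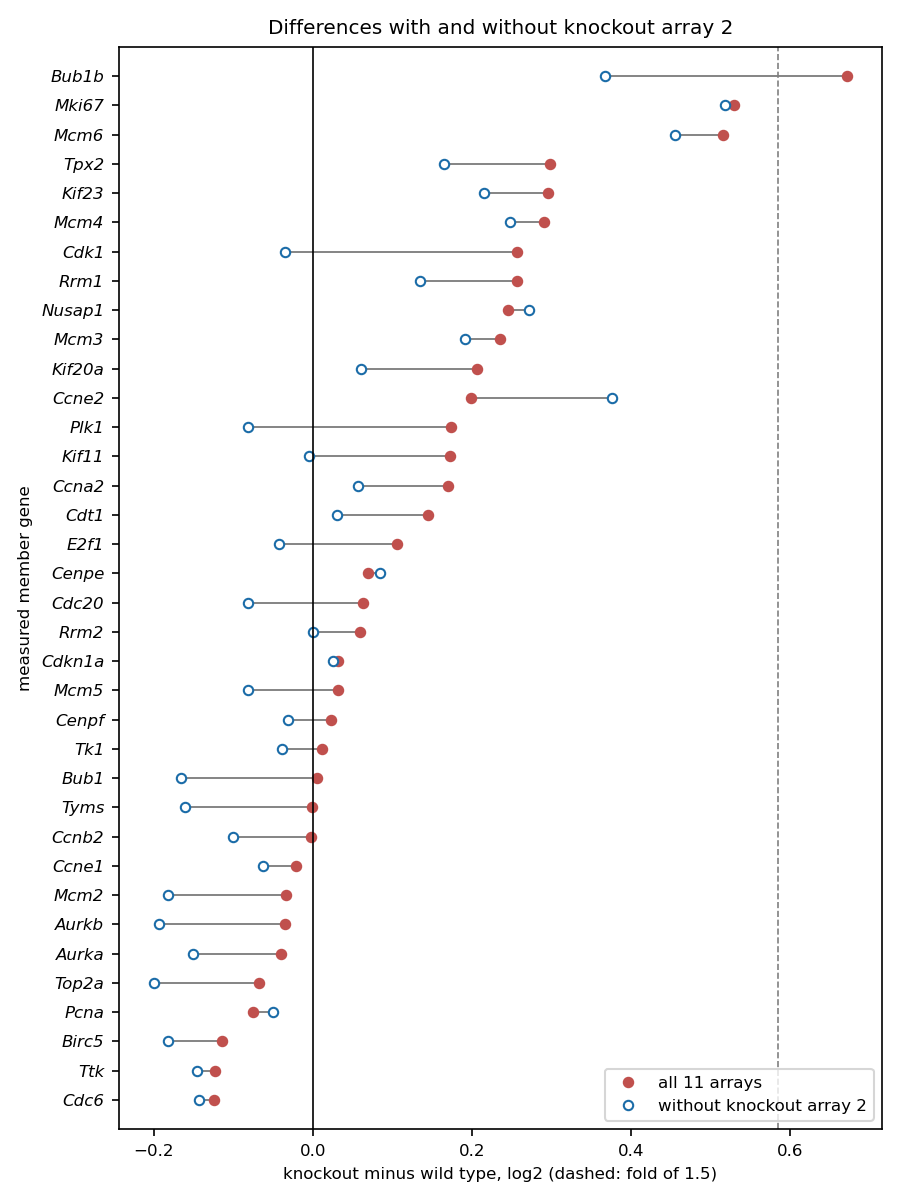
Knockout minus wild type difference of each member on the log2 scale with all 11 arrays (filled red) and without knockout array 2 (open blue), with a dashed line at a fold of 1.5. The difference was lower without that array for 32 of 36 members, and Mki67 and Mcm6 moved little (0.53 to 0.52 and 0.52 to 0.455).

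**Figure D5:**
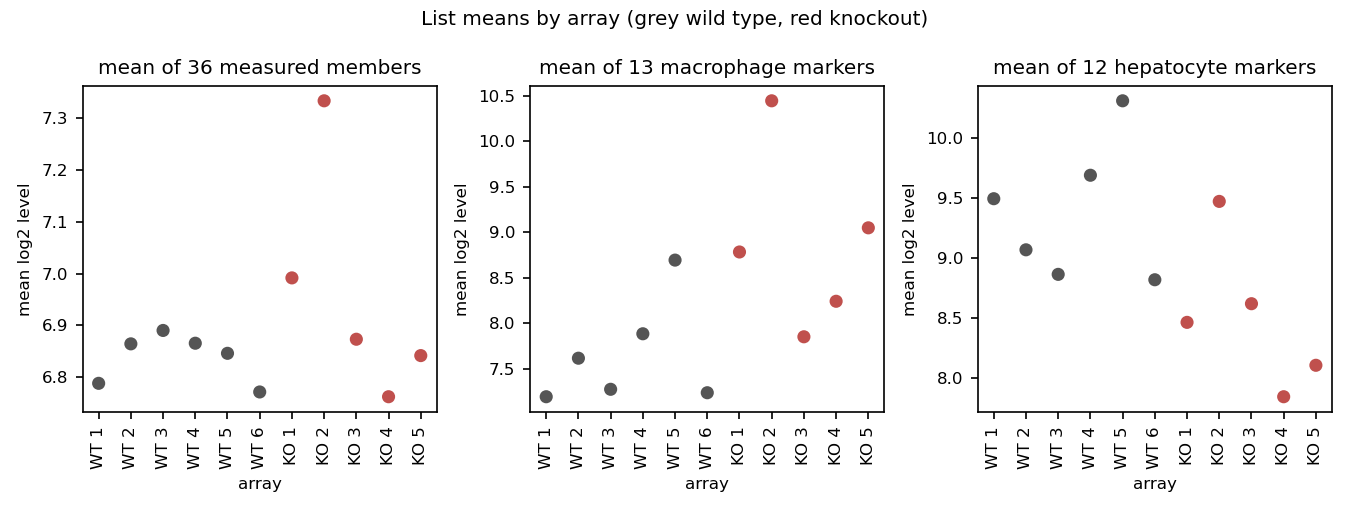
Mean log2 level on each array of the 36 members, of 13 macrophage markers and of 12 hepatocyte markers, wild type in grey and knockout in red. Knockout array 2 is highest for the members (7.33) and for macrophage markers (10.44), and wild type array 5 is highest for hepatocyte markers (10.31).

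Of 38 measured replication genes outside the members, 22 lay above 0 with a median of 0.03, 2 were higher at an unadjusted limma p of at most 0.05 and 0 lower. They were Chaf1b, a subunit of the chromatin assembly factor (0.51, SE 0.19, exact permutation p = 0.030), and the flap nuclease Fen1 (0.32, SE 0.15). The primase subunit Prim2 (0.28, SE 0.14) and the polymerase subunit Pold1 (-0.21, SE 0.11) came next. Of 54 mitosis genes, 39 lay above 0 with a median of 0.10, and 4 were higher by that p and 0 lower. Over all clusters 46% lay above 0, 2.61% were higher by that p and 3.78% lower. Without knockout array 2, 26 of 54 lay above 0 and the median was -0.03, and that array was the highest for 29 of the 54.

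The 4 mitosis genes were Ect2, Ncapg, Ncaph and Bub3. Ect2, which activates RhoA for cytokinesis, differed by 0.55 (SE 0.20). The condensin subunits Ncapg (0.33, SE 0.12) and Ncaph (0.46, SE 0.19) differed by less, and Ncapg read below the background mean on all 11 arrays. Bub3, which brings Bub1 and BubR1 to kinetochores, read from 9.57 to 9.87 in wild type and 9.88, 9.99, 10.05, 10.01 and 9.93 in knockout arrays 1 to 5. The groups did not overlap (exact permutation p = 0.0065), as for 0.18% of all clusters in that direction, and the difference was small (0.22, SE 0.09). None of these genes was called by the study's rule, and none passed the adjusted p in limma. No member had groups that did not overlap.

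Regulators of the decision to divide were compared in 3 further lists, in none of which a gene was called, against 1.03% of all clusters. Over all clusters 46% lay above 0, with a median of -0.02. Of 14 genes of G1 and S control, 12 lay above 0 with a median of 0.17. The phosphatase Cdc25a had the smallest p (0.41, SE 0.19, exact permutation p = 0.078), followed by Cdk6 (0.27, SE 0.13), Myc (0.30, SE 0.16) and Lin9 of the DREAM complex (0.385, SE 0.21). Without knockout array 2 the median of this list was 0.04. The 16 cell cycle brakes had a median of 0.01 with 10 above 0. The smallest p-values among them belonged to the inhibitor Cdkn2b (0.37, SE 0.20), the pocket protein Rbl1 (0.43, SE 0.26), Cdkn1b, which encodes p27 (0.15, SE 0.11), and Btg1 (0.16, SE 0.12). Of 15 measured p53 target genes, 13 lay above 0 with a median of 0.18. Sesn2 (0.46, SE 0.22), Mdm2 (0.32, SE 0.26), Pmaip1 (0.19, SE 0.16) and Phlda3 (0.19, SE 0.17) led this list, and all overlapped between the groups.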

How the data were processed

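Total RNA was extracted with Trizol and labelled with a whole-transcript kit, per the labels' protocols. The tools listed are Affymetrix Expression Console and RMA, per the submitters' processing notes. Their versions are not given in the sources used here. Deposited values were read as log2 from their range (2.15 to 13.79). RMA equalizes the arrays' distributions of probe signals and compresses weak signals. The medians of the compared clusters still ran from 6.61 to 6.745 between arrays. The genome build of the arrays was not given in the sources used here.

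Control rows (6640) were left out, and 22206 clusters entered one model of genotype over all 11 arrays (lmFit and eBayes of limma 3.58.1, R 4.3.3), tested on simulated data. A symbol was given by the platform's annotation for 19572 clusters, and 2634 were unnamed. For single values a two-sided exact permutation test took all 462 ways to split the arrays and cannot give a p below 0.0022. Differences are knockout minus wild type. The background mean is that of 23 antigenomic probe sets of differing GC content, from 2.36 to 8.30 on average, so it is a rough guide. Levels of different genes depend on their probes and are not compared.

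Members and lists were chosen with earlier results of these data known. Genes given by name are Atg5, a fixed set of members (Mki67, Top2a, Pcna, Mcm2, E2f1, Cdk1, Cdkn1a), members called, the 10 of smallest p, the 4 of highest and 4 of lowest level, and 4 of smallest p in each other list. Other members were named so that all are accounted for. Stab2, Ccng1, Trp53inp1 and Eda2r, which the rule does not cover, were chosen after their values were seen. The promoters of the 3 members of smallest p were shown, also decided after the values were seen. Arrays with the same number deviated from their groups with correlations between -0.32 and 0.39 over 5 pairs, so the numbers were treated as names. No arrays held identical values. The alternatives were single arrays left out, a block on replicate number, normalization, variance model, array weights, dim clusters and covariates. Classes of intron control and Y-linked signal were added after seeing the data.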

Additional observations from a re-analysis of the deposited data

Results flagged for a closer look

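Among the 6 wild type and the 5 knockout arrays, 1 array lay far from the others of its group for 9 of the members tested or their role means with knockout array 2 as the far one, and for 2 with another array. A total of 94 groups of values were examined, 11 stood out, and chance marks about 1 in 20 of independent groups. These groups are not independent, as the members share the same arrays and the role means are built from members. Knockout array 2 read 8.38 for Mcm2 against 7.53 to 7.74 on the other knockout arrays, 6.68 for Rrm2 (6.37 to 6.40), 7.97 for Tyms (7.0 to 7.27) and 6.78 for Ccna2 (6.18 to 6.28). It read 6.31 for Cdk1 (4.69 to 5.04), 7.01 for Aurka (6.38 to 6.54), 6.85 for Aurkb (5.85 to 6.13) and 7.58 for Tpx2 (6.88 to 7.0). Its mean of the mitotic entry members was 7.30 (6.30 to 6.58). Wild type array 2 read 5.57 for Cdc6, below 6.36 to 6.81 on the other wild type arrays. The mean of the G1 and S control members was 8.16 on knockout array 4, below 8.25 to 8.26 on the others.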

How the results depend on the processing

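No member passed the adjusted p in limma under any of the 25 refits, with 2 to 8 members at an unadjusted p of 0.05 or less. The share of all clusters at that unadjusted p is not given here for each refit. Leaving out 1 array at a time, 0 to 2 members were called by the study's rule, beside 0.77% to 1.41% of all clusters. In these fits the median member difference ran from -0.03 (without knockout array 2) to 0.13. Of the 20 members named by rule, 7 then turned sign in at least 1 fit. Their ranges were -0.20 to 0.0125 for Top2a, -0.18 to 0.031 for Mcm2, -0.0425 to 0.19 for E2f1, -0.035 to 0.37 for Cdk1, -0.10 to 0.10 for Ccnb2, -0.005 to 0.29 for Kif11 and -0.17 to 0.10 for Bub1. Array weights left 0 members called (Bub1b at 0.43), the arrays of high intron control signal alone also 0, and those of low signal alone 2, while 1.10%, 1.28% and 1.62% of all clusters were called (1.03% with all arrays). With no fold the rule called 3 members (8.33%), all higher, against 2.61% of all clusters higher and 3.78% lower. A fold of 1.2 also called 3, and the share of all clusters at that fold is not given here. The hepatocyte marker mean as a covariate gave 5 calls (Mcm6, Cdk1, Plk1, Bub1b and Mki67) and a median of 0.25, with 2.47% of all clusters called and their median at -0.01. The macrophage marker mean gave a median of -0.12 and 1 call, of Ccne2 (0.67) and not of Bub1b, with 7.92% of all clusters called and their median at -0.07. Both marker means themselves differed between the genotypes, so these models cannot fully separate genotype from marker level. A replicate block left the count at 1 and the median at 0.05, with Mki67 at 0.46. Quantile normalization repeated on the compared clusters left the count at 1, with 1.01% of all clusters called. The median member difference was then 0.12, and Mcm3 was at 0.13. The cause of these shifts was not tested.

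Further signs turned. With the macrophage mean as a covariate E2f1 was -0.15, Cdk1 -0.26, Ccna2 -0.15, Kif11 -0.089 and Bub1 -0.39. With the hepatocyte mean Top2a was 0.023, Mcm2 0.10 and Ccnb2 0.22. Median centring, which shifts every cluster alike, put Mcm2 at 0.0055 and Ccnb2 at 0.037, and the intron control mean or class put Ccnb2 at 0.0067 or 0.0097. Within the low intron class Mcm2 was 0.034 and Ccnb2 0.10, and within the high class Cdkn1a was -0.045, Rrm1 -0.105 and Bub1 -0.215. Bub1 was -0.038 under the replicate block, -0.13 with array weights and -0.034 with the Y-linked class, where Ccnb2 was 0.017. The number of arrays and, for Bub1, Kif11, Ttk and Cdk1, signal near the background limit the precision.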

Other observations

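The p53 target genes divided the arrays by their intron control signal, with arrays of both genotypes on each side. This division was noticed after the values were seen. The mean of the 15 genes was between 8.75 and 8.97 on the 4 arrays of high intron control signal (wild type 1 and 6, knockout 3 and 4) and between 8.21 and 8.63 on the other 7. For 9 of the 15 genes every one of the 4 arrays lay above all of the other 7, against 6.89% of all clusters and 0 of the 36 members. Ccng1, a cyclin induced by p53, read 10.14 to 10.30 on the 4 arrays and 7.95 to 9.44 on the 7. Trp53inp1, a p53-induced nuclear protein, read 8.04 to 8.54 and 5.83 to 7.35, and the receptor Eda2r 10.40 to 10.72 and 8.61 to 10.25. Cdkn1a, the p53 target among the members, did not separate the arrays in this way (12.81 to 12.93 and 12.73 to 12.97), with levels near the top of the value range. The 7 arrays held the higher values of the other replication genes, with list means of 6.65 to 6.89 against 6.51 to 6.64. The same division held for the mean of the LSEC markers (11.88 to 12.01 on the 4 arrays, 12.01 to 12.25 on the 7), for the array medians (6.61 to 6.65 and 6.66 to 6.745) and for the antigenomic background means (4.67 to 4.88 and 4.90 to 5.17). The part of these array-wide values in the p53 and replication gene levels was not tested.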
